A study of Rattus norvegicus with 25 samples.

Results

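The miR-30 family was examined in mitochondria of rat skeletal muscle. With earlier results of these data known, its members were taken by name as 9 of the 764 mature miRNAs in the deposited count table. These are 5 miRNAs of the 5p arm (miR-30a-5p, miR-30b-5p, miR-30c-5p, miR-30d-5p and miR-30e-5p) and 4 of the 3p arm (miR-30a-3p, miR-30c-1-3p, miR-30c-2-3p and miR-30e-3p). Their names stand in the table with the prefix for rat, as in rno-miR-30a-5p, rno-miR-30d-5p, rno-miR-30e-3p and rno-miR-30c-2-3p; the prefix is left off below. Counts were present for 8 of the 9, the exception being miR-30b-5p. The material was the red, oxidative part of the gastrocnemius of male Wistar-Kyoto rats, with 1 small RNA library per rat as the titles read. The trained group was 13 rats that began treadmill running at 5 weeks of age and kept it up for 4 weeks, 5 days in each. The sedentary group was 12 rats assigned at the same age and handled alike, but put on a treadmill that stood still, over the same weeks. The labels name no drug and no altered gene in either group. In all 25 rats the mitochondria were drawn from the muscle with magnetic beads and treated with RNase A, which digests RNA outside the organelle.

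A miRNA precursor is a hairpin whose arms, 5p and 3p, can each give a mature miRNA. Bases 2 to 8 of the mature miRNA, the seed, choose the messenger RNAs it represses. The miR-30 family is widely expressed and known from muscle and heart: it has been described as favouring myogenic differentiation, as repressing the autophagy gene Beclin 1 and connective tissue growth factor, and, in heart muscle cells, as limiting mitochondrial fission through p53 and Drp1. The 5p arms share the seed of the family and are usually taken as its guide strands. None of these target genes was measured here.

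RefSeq sequences (rat assembly GRCr8) were found for 6 of the 9 members and are shown to separate what members share from what tells their counts apart. They run 5′ to 3′ with the seed in capitals.
miR-30a-5p: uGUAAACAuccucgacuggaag
miR-30e-5p: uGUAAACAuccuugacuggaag
miR-30c-5p: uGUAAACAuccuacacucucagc
miR-30a-3p: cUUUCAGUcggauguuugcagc
miR-30c-1-3p: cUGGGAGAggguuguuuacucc
miR-30c-2-3p: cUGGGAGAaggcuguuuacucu
No sequence is shown for miR-30b-5p, miR-30d-5p and miR-30e-3p. The 5p sequences shown have a common seed, GUAAACA, which in the RefSeq table is held by 4 of 693 mature rat miRNAs, the other being miR-384-5p. miR-30b-5p and miR-30d-5p, without a sequence there, could not be among these 4. Counted from 1 at the 5′ end, miR-30a-5p and miR-30e-5p differ at 1 of 22 positions (C13U). miR-30c-5p differs from miR-30a-5p at 5 of 22 compared positions (C13A, G14C, G18C, G19U and A20C), all of them outside the seed. The 3p arms carry other seeds: UUUCAGU in miR-30a-3p, and UGGGAGA in miR-30c-1-3p and miR-30c-2-3p, which differ at 3 of 22 positions (G9A, U12C and C22U).

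By chromosome the 6 precursors form pairs in the RefSeq gene table. Mir30a shares a chromosome with Mir30c2, and Mir30b with Mir30d. Mir30c1 and Mir30e share theirs and both lie within Nfyc, the gene of a subunit of the transcription factor NF-Y. Distances within the pairs were not taken. miR-30c-5p has the same sequence from Mir30c1 and Mir30c2, so its reads cannot be assigned to either. The counting of reads that match several miRNAs was not given in the sources used here. Counts of close members such as miR-30a-5p and miR-30e-5p are uncertain to that extent. Among rows with at least 100 counts, no member repeated within 10% the counts of a row with a higher or equal total. miR-30c-1-3p, with 55 counts, and miR-30b-5p, with 0, were outside this check.

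Library totals ranged from 12181 to 202388 counts, with 26793 to 202388 among trained and 12181 to 186006 among sedentary libraries. These totals sum all rows, including some with nearly the same counts as another row. Shares and CPM below rest on them. Trained libraries with title numbers 1 to 13 had 26793 to 43510 counts and those numbered 14 to 27 had 72553 to 202388, while sedentary libraries had 30527 to 186006 and 12181 to 106661 in the ranges 1 to 13 and 14 to 32. As a check of the tissue, 6 of 7 skeletal muscle miRNAs had counts and took 11.5% to 33.5% of each library (median 24.6% in trained and 19.8% in sedentary libraries), and miR-208b-3p was at 0. All 3 red cell miRNAs listed were at 0, miR-451-5p among them. Leukocyte miRNAs took 0% to 0.517% (3 of 6 with a count), endothelial ones 0.161% to 1.92% (3 of 4) and smooth muscle ones 0.805% to 5.49% (both with counts). The part of such cells in the values below was not tested. Fewer cells of a type and less RNA per cell cannot be told apart in bulk material.

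The first question was which members were present. miR-30d-5p led the family: it had counts in all 25 libraries, from 98 to 2647 (median 364), and was the member with the most counts in 23 of them. Its level was 6359 ± 2264 CPM (SD, n = 25), where CPM is the count scaled to the library total after TMM adjustment, and it ranked 25 among all rows. In sedentary libraries 12 and 29 miR-30a-5p was above it, with 274 against 265 counts and 262 against 143. miR-30d-5p made up 58.2% ± 14.9 of the family's counts (SD, n = 25), from 35.3% to 95.6%.

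The arms of miR-30a came next. miR-30a-3p was at 1667 ± 1472 CPM and miR-30a-5p at 1508 ± 1449 CPM (SD, n = 25). CPM were not divided by length, as the members shown have 22 or 23 bases. miR-30a-3p had at least 10 counts in 19 libraries and miR-30a-5p in 21. Between this pair the order was not fixed: the 3p arm was higher in 15 libraries and the 5p arm in 10, with a mean difference of 159 ± 2147 CPM (SD, n = 25).

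The less abundant members followed, each with counts in part of the libraries. miR-30c-2-3p was at 558 ± 654 CPM with at least 10 counts in 14 libraries, and miR-30e-3p at 478 ± 648 CPM with at least 10 counts in 13 (SD, n = 25). miR-30c-5p was at 307 ± 510 CPM with 10 such libraries, miR-30e-5p at 272 ± 666 CPM with 6, and miR-30c-1-3p at 55.2 ± 167 CPM with 3 (SD, n = 25). Neighbours in this order, from miR-30a-3p down to miR-30c-1-3p, differed by less than the SD of their difference. miR-30d-5p stood apart, above miR-30a-3p in 25 of 25 libraries by 4692 ± 2280 CPM (SD, n = 25). The order was the same with total counts and with the authors' normalized values.

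**Figure D1:**
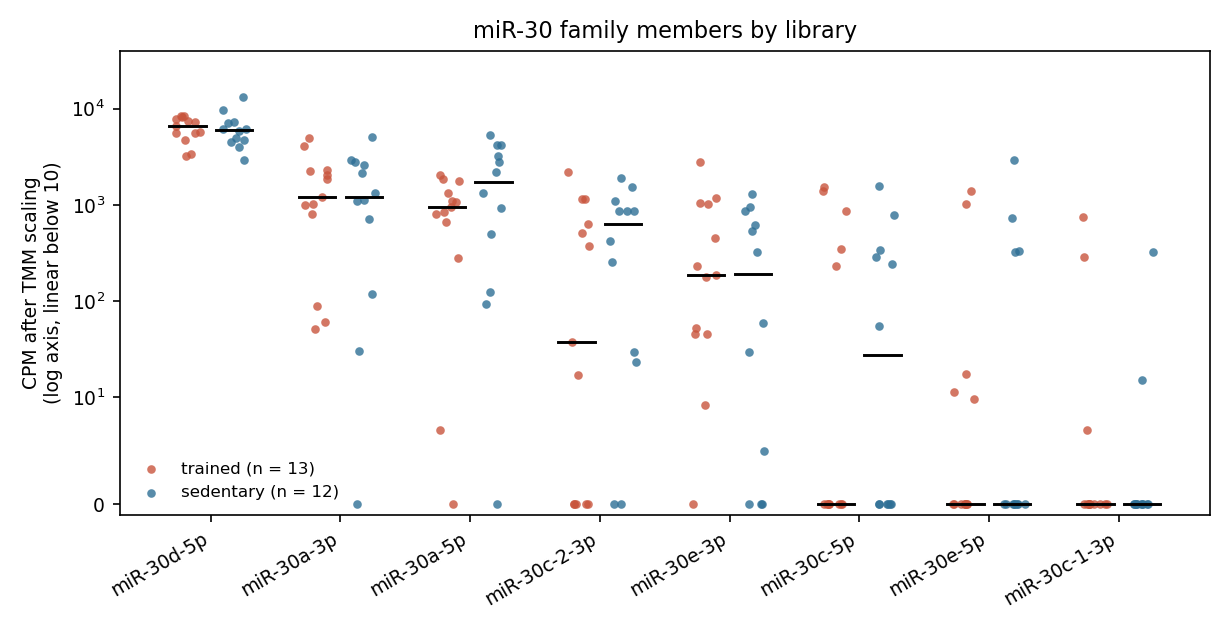
CPM of each member with a count (log axis, linear below 10) in 13 trained and 12 sedentary libraries; each point is a library and each bar a group median. miR-30d-5p lies between 2904 and 13099 CPM in every library, while the highest points of the other members lie between 747 and 5322 CPM and their lowest at 0.

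Several members had many counts in some libraries and 0 in others of like or greater depth. miR-30e-5p had 199 counts in sedentary library 8, 77 in trained library 2, 70 in sedentary library 11 and 56 in sedentary library 32, and 0 in 16 libraries. At its level over all libraries, 237 CPM, 12 of these 16 would have held more than 10 counts, up to 48.0. In trained library 27, the deepest, miR-30e-3p had 0 counts where 72.6 would correspond to its level over all libraries, and 0 counts there allows up to 21.0 CPM. miR-30a-5p was at 0 in trained library 18 and sedentary library 8, where 101 and 116 counts would correspond to its overall level. Limits and intervals for counts cover counting error only, since reads of the 20-cycle PCR are not independent molecules.

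miR-30b-5p was at 0 of 2094773 counts, which allows up to 1.48 CPM over all libraries if the row was counted at all. Its opposite arm, miR-30b-3p, which is not among the 9 members, had 209 counts in 5 libraries, 143 of them in trained library 26, 32 in sedentary library 11 and 22 in trained library 2. miR-30d-3p was at 0, as was miR-384-5p, the miRNA outside the family found with the seed GUAAACA in the RefSeq table. Whether rows were emptied before deposit was not given in the sources used here. A 0 thus shows what was deposited and not that the miRNA was missing from mitochondria. Nor does a count place a miRNA inside the organelle, since there were no libraries of whole muscle or of preparations left without RNase A.

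**Figure D2:**
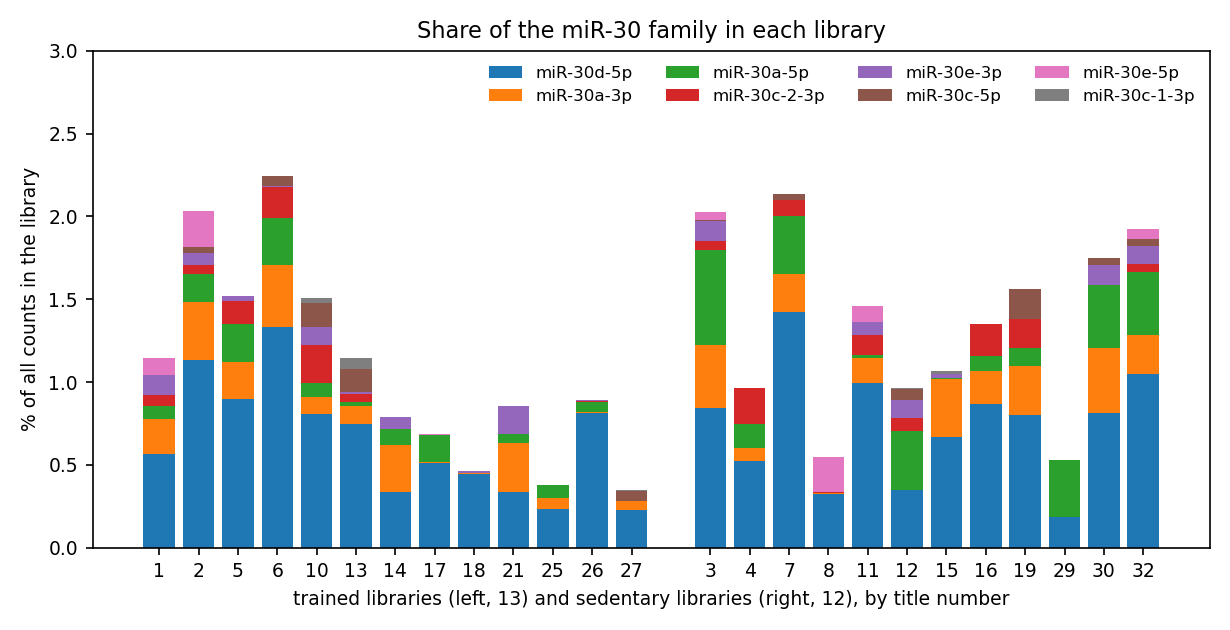
Share of all counts taken by each member in each library, as stacked bars by title number, trained on the left and sedentary on the right. miR-30d-5p forms the base of each bar; on these unscaled totals the bars of trained libraries 1 to 13 reach 1.14% to 2.24% and those of trained libraries 14 to 27 reach 0.346% to 0.890%, a split that is lost on the CPM scale.

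The second question was how the counts divided between the arms. For each precursor the log2 ratio of 5p over 3p counts was taken in every library with at least 10 counts over both arms, after adding 0.5 to each. The reads of Mir30c1 and Mir30c2 were summed, as miR-30c-5p against the sum of miR-30c-1-3p and miR-30c-2-3p.

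miR-30a had nearly even arms in the sum over libraries, 3498 counts for 5p and 3488 for 3p. This sum joins groups on opposite sides of even: 824 against 1545 counts in trained rats (34.8% 5p) and 2674 against 1943 in sedentary rats (57.9% 5p). Libraries with many counts weigh most in these sums: trained library 21 held 500 of the 1545 and sedentary library 7 held 654 of the 2674. Ratios by library did not differ between the groups beyond their spread (permutation test, two-sided, p = 0.392). Among 111 precursors with both arms listed and at least 100 counts, miR-30a ranked 1 by the share of the lower arm, at 49.9%. Without any 1 library that share was 46.8% (without trained library 21) to 50.0% and the rank 1 to 3, with rank 1 lost in 12 of 25 cases. In trained rats alone miR-30a had rank 6 and in sedentary rats alone rank 3. The median of that share over the 111 was 0%, since 77 of them had 1 arm at 0, and 11 had more than 25% in the lower arm. Such a 0 may be a row emptied before deposit. Some of the 111, miR-378a among them, had nearly the same counts as another row, and each was ranked on its own. miR-30e was at 31.9%, rank 10, with 21.6% (without sedentary library 8) to 39.2% (without trained library 21) and ranks 8 to 11 when a library was left out. By the same measure let-7d was at 20.4%, miR-151 at 1.04%, miR-378a at 0.0562% and let-7i at 0%.

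**Figure D3:**
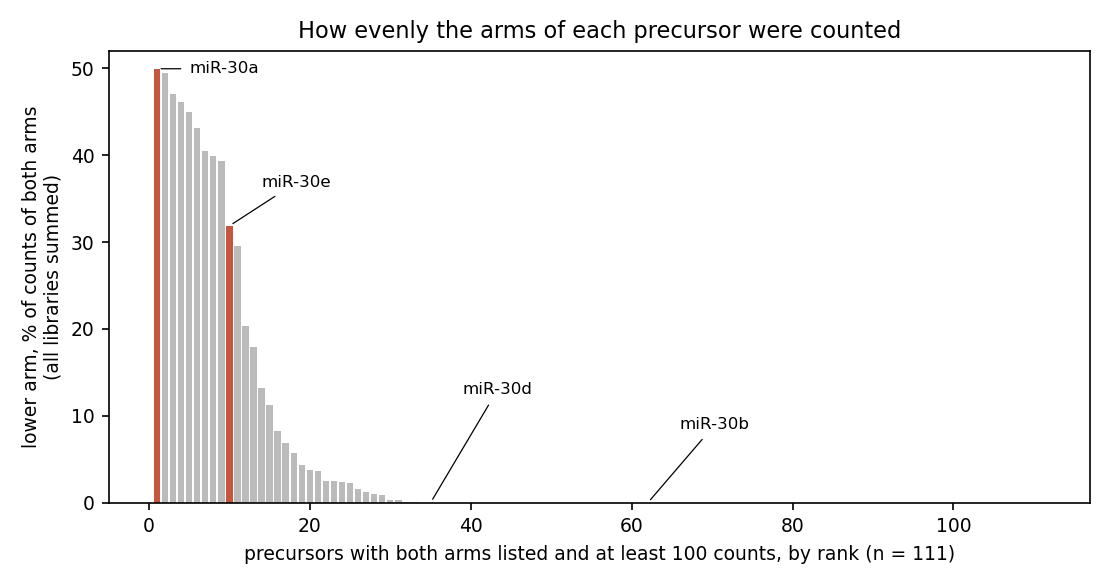
Share of the lower arm in the counts of both arms, summed over 25 libraries, for 111 precursors in falling order; the order among those at 0 is arbitrary. miR-30a stands first at 49.9% and miR-30e has rank 10 at 31.9%, and miR-30d and miR-30b are among the 77 at 0. Some of the 111 had nearly the same counts as another row.

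Within libraries the arms of miR-30a were often far from even. Sedentary library 30 had 401 counts of 5p and 418 of 3p (49.0% 5p, exact 95% binomial interval 45.5% to 52.4%), and sedentary library 7 had 654 and 429 (60.4%, interval 57.4% to 63.3%). Sedentary library 29 had 262 and 0, and sedentary library 12 had 274 and 2 (99.3%, interval 97.4% to 99.9%). At the other end, trained library 27 had 1 and 115 (0.862%, interval 0.0218% to 4.71%), and sedentary library 15 had 4 and 219 (1.79%, interval 0.491% to 4.53%).

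The log2 ratio of miR-30a lay between -6.27 and 9.04 (median -0.22) over 23 libraries. In 9 of them the arms were within 2-fold of each other, and in 7 they were more than 8-fold apart. With 5p higher in 10 libraries and 3p in 13, the mean was -0.0042 ± 3.43 (SD, n = 23) and did not differ from equal arms beyond this spread (sign-flip permutation test over libraries, two-sided, p = 0.999, adjusted p = 0.999 over 3 precursors).

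In miR-30e the 3p arm had more counts in 11 of 14 libraries. Sedentary library 30 had 0 counts of 5p and 134 of 3p, trained library 21 had 1 and 283, and sedentary library 12 had 0 and 85. The reverse was seen in sedentary library 8, with 199 and 4. The mean log2 ratio was -3.15 ± 4.04 (SD, n = 14; exact sign-flip permutation test, two-sided, p = 0.0157, adjusted p = 0.0472 over 3 precursors). This call was narrow. The adjusted p by the exact permutation test rose above 0.05 with a pseudocount of 1 (0.0612), with 20 counts over both arms (0.188) and within title numbers 1 to 13 (0.516), and fell to 0.0168 with 5 counts. Within title numbers 14 to 32 all 6 libraries had more 3p, with a mean of -5.30 and exact permutation p = 0.03125, the smallest that 6 libraries can give (adjusted p = 0.0938). It also rose above 0.05 without any 1 of 9 libraries, to 0.0776 without trained 5, 0.0901 without trained 10, 0.0872 without trained 14, 0.0776 without trained 18, 0.0945 without trained 21, 0.0623 without sedentary 3, 0.0938 without sedentary 12, 0.0806 without sedentary 15 and 0.0542 without sedentary 32. The mean ratio stayed between -3.81 and -2.77 when any library was left out. miR-30e-5p differs from miR-30a-5p at 1 of 22 positions, and how reads matching both were counted was not given. The part of read assignment in this ratio was not tested.

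Set against miR-30a in the 12 libraries with at least 10 counts for both precursors, the log2 ratio of miR-30e was lower by a mean difference of -3.15 ± 5.01 (SD, n = 12; exact sign-flip permutation test, two-sided, p = 0.0464). The same limit on read assignment applies to both ratios here. The difference was negative in 8 libraries and positive in 4. It missed the threshold in the 4 other settings that could have reached it (p 0.0649 to 0.313 by the exact permutation test) and without any 1 of 8 libraries: p was 0.0801 without trained 5, 0.0869 without trained 10, 0.0781 without trained 14, 0.0830 without trained 21, 0.0625 without sedentary 3, 0.0928 without sedentary 12, 0.0918 without sedentary 30 and 0.0586 without sedentary 32.

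miR-30c had 492 counts of 5p and 883 of 3p in all, of which miR-30c-2-3p held 828 and miR-30c-1-3p 55. The 3p arms were higher in 13 of 17 libraries. Sedentary library 11 had 0 counts of 5p and 84 of 3p, and trained library 27 had 123 and 1. The mean log2 ratio of -1.94 ± 4.21 (SD, n = 17) did not pass (sign-flip permutation test, two-sided, p = 0.0723, adjusted p = 0.108). It passed without trained library 27 (-2.46, adjusted p = 0.0276 by the permutation test) and without sedentary library 30 (-2.46, adjusted p = 0.0472). Within title numbers 1 to 13 it passed at -3.06, with 3p higher in 10 of 11 libraries (exact permutation test, adjusted p = 0.00879), and within 14 to 32 it was 0.10 over 6 libraries (exact permutation test, adjusted p = 0.969).

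At miR-30d and miR-30b 1 arm was at 0 throughout. miR-30d-5p had 13315 counts and miR-30d-3p 0, and miR-30b-3p had 209 against 0 for miR-30b-5p. As a 0 in every library may be a row emptied before deposit, no fold is given and no ratio per library was tested for them.

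**Figure D4:**
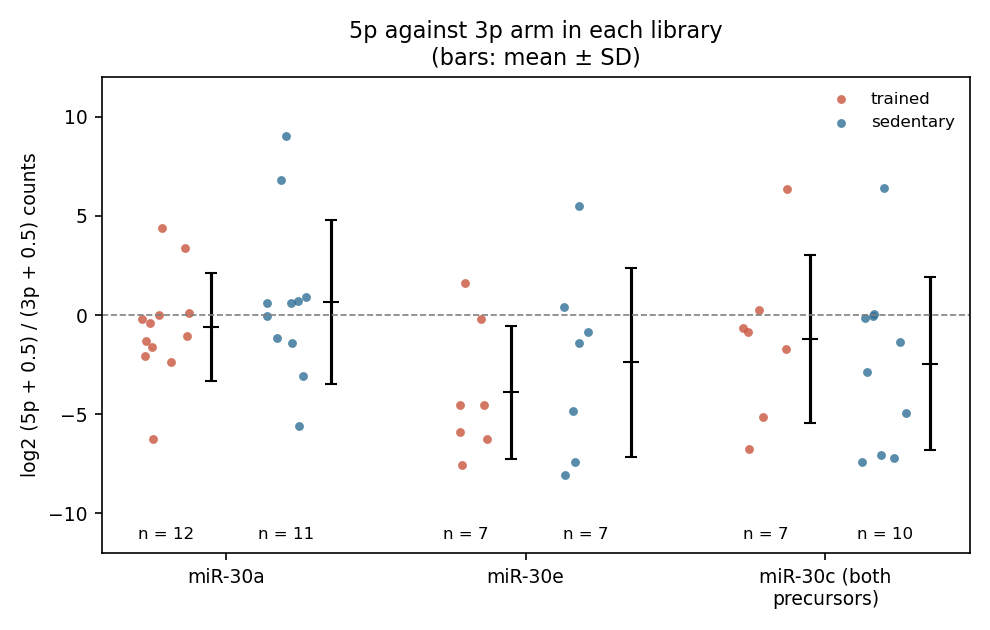
The log2 ratio of 5p over 3p counts, 0.5 added to each, in every library with at least 10 counts over both arms; points are libraries, bars the mean and SD of a group, and the dashed line marks equal arms. Trained and sedentary points overlap for all 3; those of miR-30e lie mostly below the line, 11 of 14.

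The third question was whether members differed between trained and sedentary rats. Raw counts were compared with edgeR (quasi-likelihood, two-sided), and a Benjamini-Hochberg adjusted p under 0.05 was called. Of 76 miRNAs tested 0% were called, and 1.32% had an unadjusted p under 0.05. DESeq2 and limma-voom also called 0, with 8 of 260 and 14 of 76 at an unadjusted p under 0.05. 5 of the 9 members were among the 76, and 0 of these 5 had an unadjusted p under 0.05 with any of the 3 tools. 1 of the 5 had a positive value and 4 a negative one, where 51.3% of the 76 were negative. Their median log2 fold change, trained minus sedentary, was -0.015, beside -0.0081 over the 76.

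miR-30d-5p had 3225 to 8455 CPM in trained rats (median 6578) and 2904 to 13099 CPM in sedentary rats (median 6023). The groups overlapped, with sedentary libraries 7 and 15 above all trained ones. The means were 6337 ± 1807 (SD, n = 13) and 6383 ± 2760 CPM (SD, n = 12). The log2 fold change of miR-30d-5p was -0.015 (SE 0.34, 95% interval -0.71 to 0.68, edgeR adjusted p = 0.999), and -0.20 when scaled by total counts alone. Within title numbers 1 to 13 it was 0.27 and within 14 to 32 it was -0.26 (edgeR adjusted p = 0.996 and 0.944). The interval leaves room for differences in either direction.

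miR-30a-5p showed the lowest value of the 5 in this fit, though not with limma-voom, where miR-30c-2-3p was at -1.61 and miR-30a-5p at -1.29, nor with the total count as a covariate. It had 0 to 2028 CPM in trained rats (median 945) and 0 to 5322 CPM in sedentary rats (median 1752). 6 of the 12 sedentary libraries, numbers 3, 7, 12, 29, 30 and 32, were above all 13 trained libraries, while the others lay among them and both groups had a library at 0. The means were 983 ± 660 (SD, n = 13) and 2076 ± 1852 CPM (SD, n = 12). The log2 fold change was -1.08 (SE 0.88, 95% interval -2.85 to 0.68, p = 0.223, edgeR adjusted p = 0.916). It was negative in all 12 other settings, from -1.29 to -0.76, and in all 25 fits without a library, from -1.24 to -0.79, and passed in 0 of them. The settings include title numbers 1 to 13 (-0.76) and 14 to 32 (-1.27).

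miR-30a-3p had 51.3 to 4922 CPM in trained rats (median 1211) and 0 to 5105 CPM in sedentary rats (median 1224), so that the groups overlapped almost fully. Sedentary library 15 was above all trained ones and 2 sedentary libraries, 12 and 29, were below them. Its log2 fold change was -0.00083 (SE 0.84, 95% interval -1.69 to 1.68, edgeR adjusted p = 0.999), and 0.72 and -0.53 within title numbers 1 to 13 and 14 to 32. miR-30e-3p had 0 to 2786 CPM in trained rats (median 188) and 0 to 1298 CPM in sedentary rats (median 193), a fold change of 0.48 (SE 1.01, edgeR adjusted p = 0.973). Its sign rested on single libraries: it was -0.10 without trained library 21, which had 283 counts, and -0.06 without trained library 10. miR-30c-2-3p had 0 to 2222 CPM in trained rats (median 38.0) and 0 to 1920 CPM in sedentary rats (median 640), a fold change of -0.49 (SE 1.08, edgeR adjusted p = 0.973). That value ran from -1.09 without trained library 10 to -0.20 without sedentary library 4, and was -2.24 (edgeR adjusted p = 0.762) with the total count as a covariate, where miR-30a-5p was at -1.03.

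**Figure D5:**
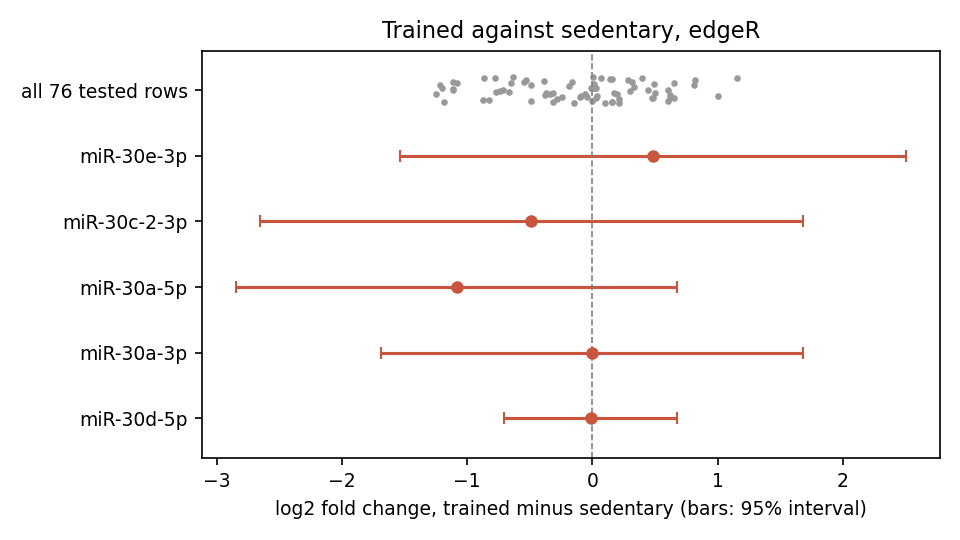
Log2 fold change, trained minus sedentary, of the 5 tested members with approximate 95% intervals derived from the edgeR fit, and of all 76 tested miRNAs as grey points. Every interval of the members spans 0; that of miR-30d-5p is the narrowest of the 5, from -0.71 to 0.68.

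Detection was compared for all 8 members present, those too rare for that fit included. At least 10 counts of miR-30e-5p were found in 2 of 13 trained and 4 of 12 sedentary libraries (Fisher's exact test, two-sided, p = 0.378), and of miR-30c-2-3p in 6 of 13 and 8 of 12 (exact p = 0.428). For miR-30c-5p the numbers were 5 of 13 and 5 of 12, and for miR-30c-1-3p 2 of 13 and 1 of 12 (exact p = 1 for each). 0 of the 8 members present passed at an adjusted p under 0.05 or at an unadjusted one, also when 1, 5 or 20 counts were asked for. At 10 counts 2 of the 8 could not have passed: miR-30d-5p, found in all 25 libraries, and miR-30c-1-3p, found in 3. Over the 242 rows with 10 counts in some library 0% passed after adjustment, and 0.826% had an unadjusted p under 0.05. Some of these rows likewise reached 10 counts in too few libraries to pass.

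Arm ratios did not differ between the groups beyond the spread of libraries. For miR-30a the mean log2 ratio was -0.61 ± 2.71 (SD, n = 12) in trained rats against 0.66 ± 4.11 (SD, n = 11) in sedentary ones, a difference of -1.28 (permutation test, two-sided, p = 0.392, adjusted p = 0.553 over 3 precursors). That difference was -0.44 without sedentary library 29, which had no 3p count, -0.66 without sedentary library 12 and -1.90 without sedentary library 15. For miR-30e the means were -3.90 ± 3.36 and -2.39 ± 4.77 (SD, n = 7 and 7; exact permutation test, two-sided, p = 0.497, adjusted p = 0.553), and leaving out sedentary library 8 moved the difference of -1.51 to -0.20, and leaving out sedentary library 30 to -2.46. For miR-30c they were -1.21 ± 4.21 and -2.45 ± 4.36 (SD, n = 7 and 10; exact permutation test, two-sided, p = 0.553, adjusted p = 0.553), and leaving out trained library 27 moved the difference of 1.24 to -0.019, and leaving out sedentary library 30 to 2.22. Within title numbers 1 to 13 the differences were -1.99 for miR-30a, -1.60 for miR-30e and 1.28 for miR-30c (exact permutation tests, adjusted p = 0.657 for each). Within 14 to 32 they were -0.64 for miR-30a (exact permutation p = 0.794) and -1.39 for miR-30e (exact permutation p = 0.700; 3 libraries a group, too few to reach 0.05).

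The family as a whole took 1.08% ± 0.603 (SD, n = 13) of each trained library and 1.36% ± 0.548 (SD, n = 12) of each sedentary one, or 10620 ± 3447 CPM (SD, n = 13) against 11836 ± 3695 CPM (SD, n = 12). Trained libraries divided by their title numbers, at a boundary known from earlier results of these data and not given in the labels. The 6 numbered 1 to 13 had 1.14% to 2.24% of counts in the family, and the 7 numbered 14 to 27 had 0.346% to 0.890%, without overlap on this scale. The share of all rows that divide without overlap at this boundary was not taken, so the split is not shown to be particular to the family. On the CPM scale they overlapped: the family had 11332 to 14642 CPM in the former and 4904 to 14334 CPM in the latter, where trained library 21 was the highest and the other 6 lay below the lower range's lowest. The sedentary libraries had 0.550% to 2.14% (6 libraries) and 0.533% to 1.92% (6 libraries) in the ranges 1 to 13 and 14 to 32. These ranges differ in depth within the trained group, so that title number and depth cannot be told apart there. miR-30d-5p likewise had 5611 to 8372 CPM in the 6 trained libraries numbered 1 to 13 and 3225 to 8455 CPM in the other 7, which overlap.

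miR-30c-2-3p followed the title numbers in trained libraries, a pattern picked out after its values were seen. It had 17, 21, 54, 50, 78 and 20 counts in trained libraries 1, 2, 5, 6, 10 and 13, and 0 to 5 counts in the 7 deeper trained libraries numbered 14 to 27. In sedentary rats at least 10 counts were found in 5 of 6 libraries numbered 1 to 13 and in 3 of 6 numbered above. Rows were then searched for at least 10 counts in all 6 trained libraries of the lower range and in none of the 7 of the upper. Of the 242 rows with 10 counts in some library, miR-30c-2-3p was the only 1 (0.413%) to meet this. It does so by construction, as the criterion was taken from its values after they were seen. The value of its fold change within numbers 1 to 13 was 0.36 (SE 1.03, edgeR adjusted p = 0.996), and in the upper range it had too few counts to be tested.

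On TMM-scaled CPM, members varied together only weakly. Over 25 libraries the arms of miR-30a, cut from a common hairpin, had Pearson r = 0.12 and Spearman rho = 0.087 of log2(CPM + 1) (permutation p = 0.567 and 0.677, adjusted p = 0.695 and 0.995 over 10 pairs). miR-30a-3p and miR-30c-2-3p, whose precursors share a chromosome, had r = 0.24 and rho = 0.017 (permutation p = 0.264 and 0.936, adjusted p = 0.528 and 0.995). The highest values were those of miR-30d-5p with miR-30c-2-3p, at r = 0.48 and rho = 0.40 (permutation p = 0.0146 and 0.0490, adjusted p = 0.104 and 0.245), and with miR-30a-3p, at r = 0.46 and rho = 0.41 (permutation p = 0.0208 and 0.0443, adjusted p = 0.104 and 0.245). Without the 2 libraries farthest from the median of miR-30c-2-3p, the former was at r = 0.51. Without the 2 farthest from the median of miR-30a-3p, the latter was at r = 0.15, so that it rests on those libraries. In title numbers 1 to 13 (n = 12) and 14 to 32 (n = 13), r was 0.30 and 0.45 for miR-30c-2-3p and 0.69 and 0.35 for miR-30a-3p. All points share the library and its scaling: with CPM from total counts both pairs passed, at r = 0.71 (permutation adjusted p = 0.00160) and r = 0.59 (permutation adjusted p = 0.00960). With the authors' normalized values both passed by Pearson, at r = 0.62 and r = 0.60 (permutation adjusted p = 0.00915 for each). By Spearman only the pair with miR-30c-2-3p did so there. The median rho of the 10 pairs was 0.090, beside 0.0033 over all 2850 pairs of tested rows.

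The 5 tested miRNAs outside the family most like miR-30d-5p over the 25 libraries, by Spearman rho of log2(CPM + 1) among 71 candidates, were miR-191a-5p (rho = 0.53), miR-103-3p (0.46), miR-107-3p (0.45), miR-99b-5p (0.45) and miR-181b-5p (0.39). miR-103-3p and miR-107-3p have nearly the same counts. These values are descriptions, as they are the highest of many.

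Other miRNAs described as acting on the same processes were looked up by name. Of all 764 rows, 260 had a count and 76 were tested. Of 5 miRNAs described as acting on mitochondrial fission or fusion, 2 had a count and 0 were tested: miR-499-5p, which acts on Drp1 through calcineurin, had 412 counts in 5 libraries, and miR-140-5p, described to repress mitofusin 1, had 32 counts in 2. Of 10 miRNAs described as acting on autophagy genes, 6 had a count and 1 was tested, with 0 called in either direction. This was miR-204-5p, described to repress LC3, at 623 ± 768 CPM (SD, n = 13) in trained rats against 493 ± 603 CPM (SD, n = 12) in sedentary ones, with a log2 fold change of 0.31 (SE 1.07, edgeR adjusted p = 0.999). miR-101a-3p, also of this list, was at 781 ± 1636 CPM (SD, n = 13) in trained rats against 624 ± 1367 CPM (SD, n = 12) in sedentary ones, with counts in 17 libraries.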

How the data were processed

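Small RNA libraries of 25 rats were analysed, grouped by their titles. Per the labels' protocols, mitochondria from about 100 mg of muscle were treated with RNase A and libraries were amplified for 20 PCR cycles with diluted adapters. The authors deposited raw counts per mature miRNA, in which empty cells were read as 0, and a normalized signal equal to the count divided by 1 size factor per library. fastp 0.20.0 and DESeq2 1.36 are named in the submitters' processing notes; which aligner, counter, build and annotation were used was not given in the sources used here. Positions are therefore left out.

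edgeR 4.0.16 (R 4.3.3, quasi-likelihood test, TMM, filterByExpr with minimum count 10 and minimum total 15) was fitted to the whole table. It kept 76 rows holding 96.9% to 99.0% of counts, and p-values were adjusted over all of them by Benjamini-Hochberg with a threshold of 0.05. Arm ratios were compared with exact permutation tests, or with 100000 resamples (scipy 1.17.1), for precursors with 10 counts over both arms in at least 6 libraries of each group. DESeq2 1.42.0 and limma 3.58.1 (voom) were alternatives, beside other scalings, filters, pseudocounts, ranges of title numbers and leaving out each library. The family's level on TMM totals and the arm shares without each library were added after seeing the data. Scripts were tested on simulated data.

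No libraries of a group agreed within sampling noise (chi-square per degree of freedom at least 20.7 in 144 pairs). P-values measure the spread between libraries, as litter and batch are not labelled. Depth was 12181 to 202388 counts, and 0 counts in a library allowed 14.8 to 217 CPM (3 counts of the scaled total). Named miRNAs were all members, other rows of their precursors or seed, the 5 rows most like the leading member, let-7d, let-7i, miR-151 and miR-378a for their arms, and from each list those past the threshold or else the 2 most abundant. Members, lists and the ranges of title numbers were chosen with earlier results of these data known.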

Additional observations from a re-analysis of the deposited data

How the results depend on the processing

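No paired analysis was possible because the groups share no title numbers. The count of members called was 0 in 12 other settings and 25 fits without a library, also with no filter, where 66 of 260 rows (25.4%) were called. Fold changes near 0 turned sign with none past the threshold: miR-30d-5p to 0.020 with 10 counts in at least 12 libraries, 0.063 without the library under 0.25 of the median total, 0.27 in title numbers 1 to 13 and 0.071 with near-identical rows counted once, and miR-30a-3p in these settings to 0.025, 0.062, 0.72 and 0.041. miR-30a-3p was also at 0.057 with DESeq2 and with its size factors, 0.060 with the upper quartile and 0.092 with no filter. With total counts miR-30e-3p was at -0.037, and in title numbers 1 to 13 miR-30c-2-3p was at 0.36. Without a library the ranges were -0.14 to 0.14 for miR-30d-5p, -0.25 to 0.23 for miR-30a-3p, -0.10 to 0.64 for miR-30e-3p, -1.24 to -0.79 for miR-30a-5p and -1.09 to -0.20 for miR-30c-2-3p. Scaling by total counts moved the median over all 76 rows from -0.0081 to -0.29, and DESeq2 size factors moved it to -0.16.

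Mean log2 arm ratios of miR-30e lost their call with a pseudocount of 1 (-2.69), 20 counts over both arms (-2.74) and in title numbers 1 to 13 (-1.53), and in 14 to 32 (-5.30), where all 6 libraries had more 3p and p was the smallest they can give. Its difference from miR-30a did so with a pseudocount of 1 (-2.67), 5 counts (-2.48), 20 counts (-3.40) and in both ranges (-2.78 and -3.67, the latter over 5 libraries, which cannot reach p under 0.05). In title numbers 1 to 13 miR-30a was at 0.070 and miR-30c at -3.06, past the threshold, and in 14 to 32 miR-30c was at 0.10. Without a library the means ran from -0.42 to 0.28 for miR-30a, -3.81 to -2.77 for miR-30e and -2.46 to -1.60 for miR-30c, and the difference of miR-30e from miR-30a from -3.75 to -2.14. Group differences ran from -1.90 to -0.44 for miR-30a, -2.46 to -0.20 for miR-30e and -0.019 to 2.22 for miR-30c; within title numbers 14 to 32 miR-30c kept 1 trained library and was not tested. With CPM from total counts 2 of 10 pairs of members passed by Pearson and 2 by Spearman, and with the authors' normalized values 2 and 1, against 0 and 0. After seeing the data, the family's share was also taken on TMM totals: the lowest of trained libraries 1 to 13 minus the highest of 14 to 27 went from 0.255 to -0.300 percentage points. The cause of these changes was not tested.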
